A study of Nicotiana tabacum with 6 samples.

Results

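The genes described here encode the blue-light receptor phototropin 2 and cryptochromes (DASH and cryptochrome 1) of tobacco. They were chosen by identifier from the protein descriptions in the deposited tables, 5 genes of the 31766 listed in the series: gene_28646 (phototropin 2), gene_55270 and gene_43370 (cryptochrome DASH), and gene_72430 and gene_40637 (cryptochrome 1). RNA of tobacco (var. Xanthi) was sequenced as 6 libraries in 3 comparisons of a transgenic (T) with a sibling nontransgenic (NT) library. DS10:A9 and DS10:A4a seeds, which carry the sunflower heat stress factor A9 or A4a behind the seed-specific DS10 promoter, were each compared with NT seeds, and the 2 NT seed libraries were separate. All seeds had imbibed for 24 h in darkness. NT seedlings were the reference for 35S:A9 seedlings, in which A9 was expressed in vegetative tissue from the 35S promoter, and both were 3 weeks old and grown in long days. The lines were homozygous with single transgene insertions. Each library mixed 4 RNA samples from 3 pairs of sibling lines in equal amounts, so each condition had 1 library per comparison. No difference given here has a replicate check, and the sunflower transgenes were not analysed here.

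Phototropins are plasma membrane kinases whose LOV domains bind a flavin and sense blue light. In Arabidopsis they steer phototropism, stomatal opening and the movement of chloroplasts, and phototropin 2 is the form that also drives chloroplasts away from strong light. Cryptochromes are flavoproteins related to DNA photolyases. Cryptochrome 1 is a nuclear and cytosolic receptor that restrains hypocotyl growth in blue light, largely by acting on the COP1/SPA ubiquitin ligase, which otherwise degrades transcription factors such as HY5. Cryptochrome DASH of Arabidopsis is targeted to chloroplasts and mitochondria and repairs ultraviolet lesions in single-stranded DNA. The deposited KEGG and GO terms named phototropin 2 a serine/threonine kinase, DASH a photolyase of chloroplast and mitochondrion, and both phototropin 2 and cryptochrome 1 blue-light photoreceptors.

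Values are FPKM as deposited, which correct the fragments of a gene for the length of its transcript and the size of the library. Depths recovered from the steps between low FPKM values were 11300000 to 16400000 fragments per library, and from these each FPKM was converted to a number of fragments. Every log2 fold (T over NT) is given with an exact 95% counting interval from those fragments, and a gene is called higher or lower where that interval excludes 0. The interval covers counting error only, not the spread between plants or lines. The A9up table lists genes with a log2 fold of about 0.6 or more with A9 in both seeds and seedlings, and the A4a tables list genes at or above 0.6 or at or below -0.5. Listing therefore fixes the sign of a fold, and the intervals make no allowance for that. A gene outside the A9up table may have been lower with A9, higher in 1 tissue alone, short of the threshold or not measured, and a gene outside the A4a tables lay between the thresholds or was not measured. In bulk RNA, a change in the number of cells of a type cannot be told apart from a change in transcript per cell.

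In seedlings all 3 listed genes, phototropin 2 and both copies of cryptochrome DASH, were about 2-fold higher in 35S:A9 than in NT, and each interval excluded 0. In imbibed seeds the same 3 genes stood far lower, and only the more abundant DASH copy had an interval that excluded 0 with DS10:A9. With DS10:A4a the listed genes were the 2 cryptochrome 1 genes, higher, and 1 DASH copy, lower, all on 10 fragments or fewer per library. Phototropin 2 was in neither A4a table, and cryptochrome 1 was not in the A9up table.

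Phototropin 2 (gene_28646) was the most abundant of the 5 genes in seedlings, with 34.01 FPKM in the NT library and 67.84 FPKM in the 35S:A9 library, from 1641 and 3308 fragments. The T library thus held 33.83 FPKM more than the NT library, and the exact Poisson intervals of the levels, 32.4 to 35.7 and 65.6 to 70.2 FPKM, did not overlap. The log2 fold was 1.00 with a counting interval of 0.91 to 1.08. At its level in 35S:A9 seedlings phototropin 2 ranked 76th of the 4754 genes with seedling values in the A9up table. Its fold was no larger than is usual in that table: 34.7% of the 3539 genes with a seedling fold had a smaller one, and the median log2 fold was 1.24.

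In imbibed seeds the phototropin 2 transcript was scarce, with 0.34 FPKM in the NT library and 0.57 FPKM in the DS10:A9 library, from 14 and 24 fragments. The T value was the higher one, as listing in the table requires, and the Poisson intervals of 0.188 to 0.578 and 0.365 to 0.849 FPKM overlapped. The log2 fold was 0.75 with an interval of -0.28 to 1.79. With 14 fragments in the NT library, 29 fragments in the T library would have been needed for the interval to exclude 0. The interval holds both 0 and the seedling value of 1.00, so a difference was not detectable in seeds at this depth.

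Seedlings held far more phototropin 2 transcript than seeds. The ratio of seedling to seed FPKM was 100.0 in the NT libraries and 119 in the A9 libraries. Seeds and seedlings were normalized separately and differ in tissue, age and light, so these ratios are given as levels side by side. Transcript lengths of 3674 and 3689 bases were used in the seed and seedling tables.

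The cryptochrome DASH genes are a pair whose seed descriptions point to both ancestral species of tobacco, gene_55270 to a protein of Nicotiana tomentosiformis and gene_43370 to one of Nicotiana sylvestris. In the seedling values both carry the same potato description. Reads shared by such close copies can be split unevenly by the counting, so the values of single copies are uncertain to that extent. The listed transcripts were 1769 and 1167 bases long.

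In seedlings gene_55270 had 9.48 FPKM in the NT library and 21.35 FPKM in the 35S:A9 library, from 216 and 492 fragments. This was the largest fold of the 3 genes in seedlings, with a log2 value of 1.17 and an interval of 0.94 to 1.41. The other copy, gene_43370, had 6.26 FPKM in the NT library and 11.53 FPKM in the 35S:A9 library, from 93 and 173 fragments. Its log2 fold was 0.88 with an interval of 0.51 to 1.26. The intervals of phototropin 2 and both DASH copies overlap, so their order in seedlings is not resolved. They ranked 76th, 192nd and 346th by level in 35S:A9 seedlings.

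In seeds gene_55270 had 1.38 FPKM in the NT library and 2.30 FPKM in the DS10:A9 library, from 26 and 46 fragments. The log2 fold of 0.74 had an interval of 0.05 to 1.53, which excludes 0 narrowly. With 1 fragment fewer in the T library and 1 more in the NT library the interval was -0.03 to 1.43, so the call rests on 1 fragment per library. The copy gene_43370 had 0.32 FPKM in the NT library and 0.85 FPKM in the DS10:A9 library, from 4 and 11 fragments. Its log2 fold of 1.41 was the largest of the 3 in these seeds and the least precise, with an interval of -0.35 to 3.52.

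Added together, the DASH copies had 30 fragments in NT seeds and 57 in DS10:A9 seeds, and the log2 fold was 0.88 with an interval of 0.21 to 1.56. In seedlings the sums were 309 and 665 fragments, a log2 fold of 1.09 with an interval of 0.89 to 1.29. Both copies are in the A9up table, so listing fixed the sign of these sums, and their intervals make no allowance for that. The seed and seedling intervals of the summed copies overlap. The copy gene_55270 supplied most of the fragments in all 4 libraries. Its share was 86.7% (exact binomial 95% interval 69.3 to 96.2%) in NT seeds and 80.7% (68.1 to 90.0%) in DS10:A9 seeds. In seedlings it was 69.9% (64.5 to 75%) in NT and 74.0% (70.5 to 77.3%) in 35S:A9. Within each tissue the intervals overlap, so a shift between copies with A9 was not detectable at this depth.

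The proportion of phototropin 2 to DASH transcript was below 1 in seeds and above 1 in seedlings, in NT and T alike. Phototropin 2 FPKM divided by the summed DASH FPKM was 0.2 in NT seeds and 0.181 in DS10:A9 seeds. It was 2.16 in NT seedlings and 2.06 in 35S:A9 seedlings. From NT seeds to NT seedlings the level of gene_55270 was 6.87 times and that of gene_43370 19.6 times as high, against 100.0 times for phototropin 2. In seeds the order by FPKM was gene_55270 first, while phototropin 2 and gene_43370 could not be ordered within their Poisson intervals. In seedlings the order was phototropin 2, gene_55270 and gene_43370, with no overlap of the Poisson intervals.

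**Figure D1:**
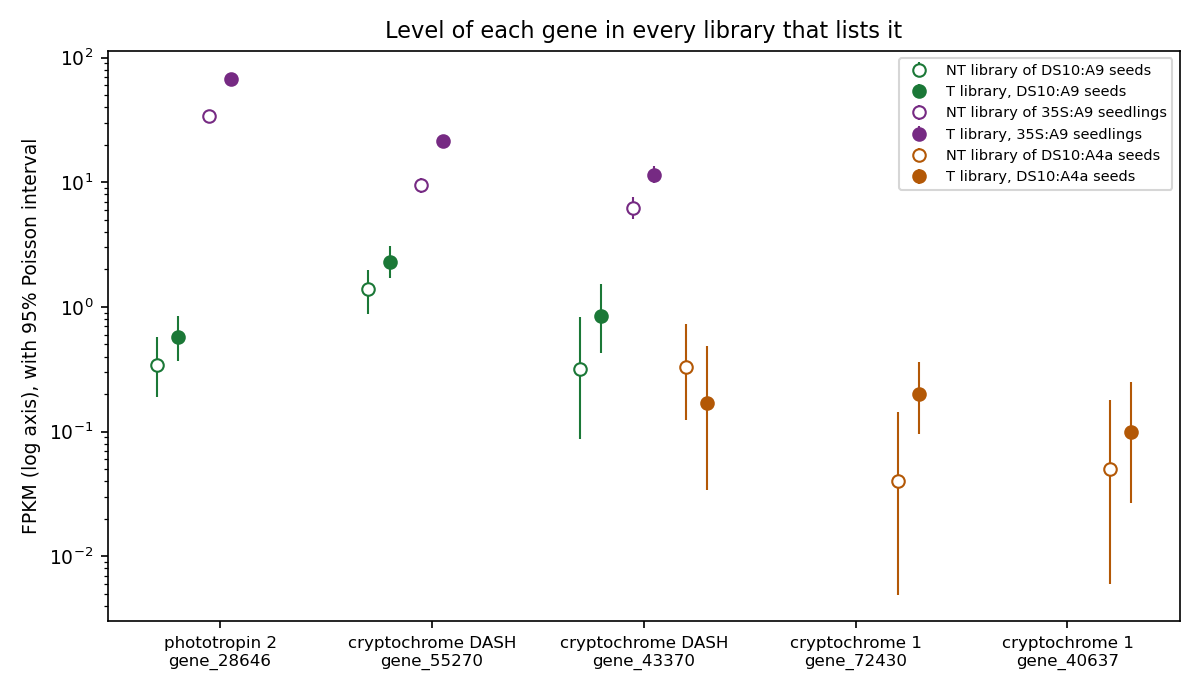
FPKM (log axis) of each of the 5 genes in every library that lists it, with exact 95% Poisson intervals from the fragments behind it. Open circles are NT and filled circles T libraries, and colours mark the comparison. Phototropin 2 runs from 0.34 and 0.57 FPKM in seeds to 34.01 and 67.84 FPKM in seedlings, while the cryptochrome 1 genes stay at or below 0.20 FPKM.

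Of the 3 genes listed with A9, 1 was called higher in DS10:A9 seeds, where 20.7% of the 4754 listed genes were, and 3 were called higher in 35S:A9 seedlings, where 42.8% were. These shares depend strongly on level. Among A9up genes with at least 1 FPKM in a library of the comparison, 52.0% were called in seeds and 73.0% in seedlings. The seedling log2 folds of the 3 genes, 0.88 to 1.17, all lay below the median of 1.24 over A9up genes with a fold. In seeds the median was 1.09, with phototropin 2 and gene_55270 below it and gene_43370 above it. On the log2(FPKM + 1) scale, which shrinks the change of low genes, the seed values were 0.23 for phototropin 2, 0.47 for gene_55270 and 0.49 for gene_43370. Counts of 3 genes against such shares do not set the receptors apart from the table as a whole.

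**Figure D2:**
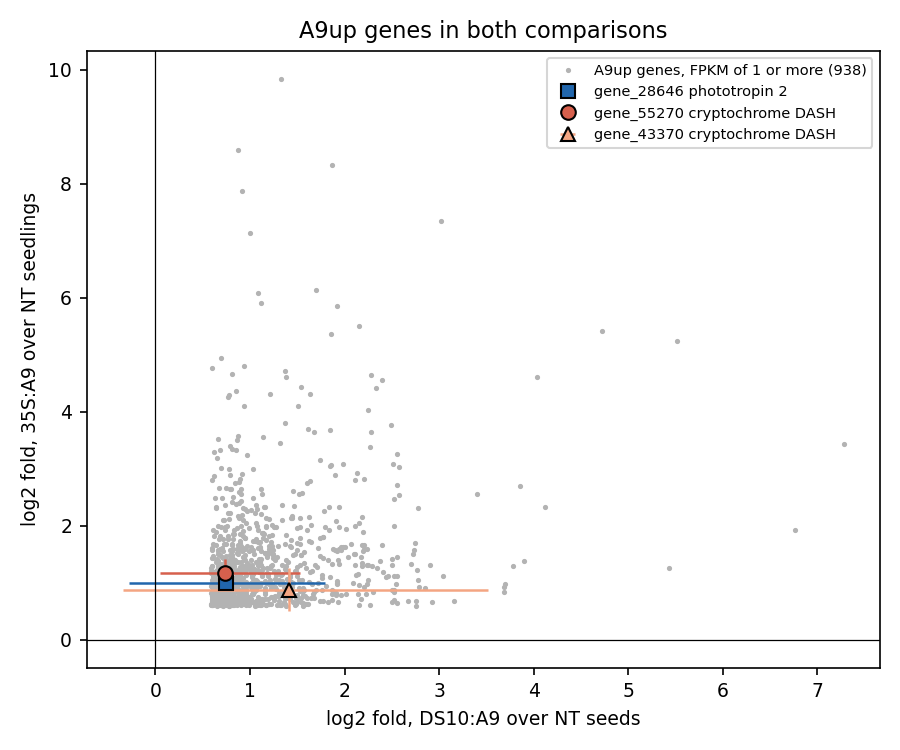
Log2 folds of A9up genes in DS10:A9 over NT seeds (x axis) and 35S:A9 over NT seedlings (y axis). Grey points are the 938 genes with at least 1 FPKM in both comparisons, and coloured symbols with 95% counting intervals are phototropin 2 (0.75 and 1.00), gene_55270 (0.74 and 1.17) and gene_43370 (1.41 and 0.88). All 3 lie within the dense part of the cloud, with far wider intervals in seeds than in seedlings. Phototropin 2 and gene_43370 did not reach 1 FPKM in seeds, so they are not among the grey points.

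Both cryptochrome 1 genes were near the limit of detection in the DS10:A4a comparison. The gene gene_72430, described from Nicotiana tomentosiformis, had 0.04 FPKM in the NT library and 0.20 FPKM in the DS10:A4a library, from 2 and 10 fragments over 3152 bases. Its log2 fold of 2.32 had an interval of 0.07 to 5.53, and with 1 fragment moved against the difference it ran from -0.44 to 4.09. The other gene, gene_40637, described from tomato, had 0.05 FPKM in the NT library and 0.10 FPKM in the DS10:A4a library, from 2 and 4 fragments over 2562 bases. Its log2 fold of 1.00 had an interval of -1.82 to 4.45. On the log2(FPKM + 1) scale the values were 0.21 for gene_72430 and 0.07 for gene_40637. Summed, the pair went from 4 to 14 fragments, a log2 fold of 1.79 with an interval of 0.12 to 3.85. Both genes were listed as higher, so listing fixed the sign of this sum, and the interval makes no allowance for that. Another gene described as cryptochrome 1, gene_2915, was listed at 0 in the NT library and at 0.04 FPKM, 2 fragments, in the T library. No fold is given for gene_2915, and it is not part of the sum.

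The DASH copy gene_43370 was the only one of the 5 genes listed in all 3 comparisons. With DS10:A4a it had 0.33 FPKM in the NT library and 0.17 FPKM in the T library, from 6 and 3 fragments. The log2 fold of -0.96 had an interval of -3.65 to 1.21. With 6 NT fragments, the interval would have lain below 0 only with 0 fragments in the T library. The separate NT seed libraries of the A9 and A4a comparisons had 0.32 and 0.33 FPKM for this gene, from 4 and 6 fragments. Their Poisson intervals, 0.088 to 0.825 and 0.124 to 0.733 FPKM, are wide, so the near match carries little weight. Against the NT library of the other seed comparison the log2 fold of gene_43370 was 1.36 with DS10:A9 and -0.91 with DS10:A4a. Each interval still included 0. The other copy, gene_55270, was not in an A4a table.

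Of the 3 genes listed with A4a, 1 was called higher and none lower, by the exact counting interval. Among the 29629 genes listed with A4a, 8.90% were called higher and 11.9% lower. These were 19.4% of the genes listed as higher and 22.0% of those listed as lower, and the median log2 folds of these lists were 1.00 and -0.90.

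**Figure D3:**
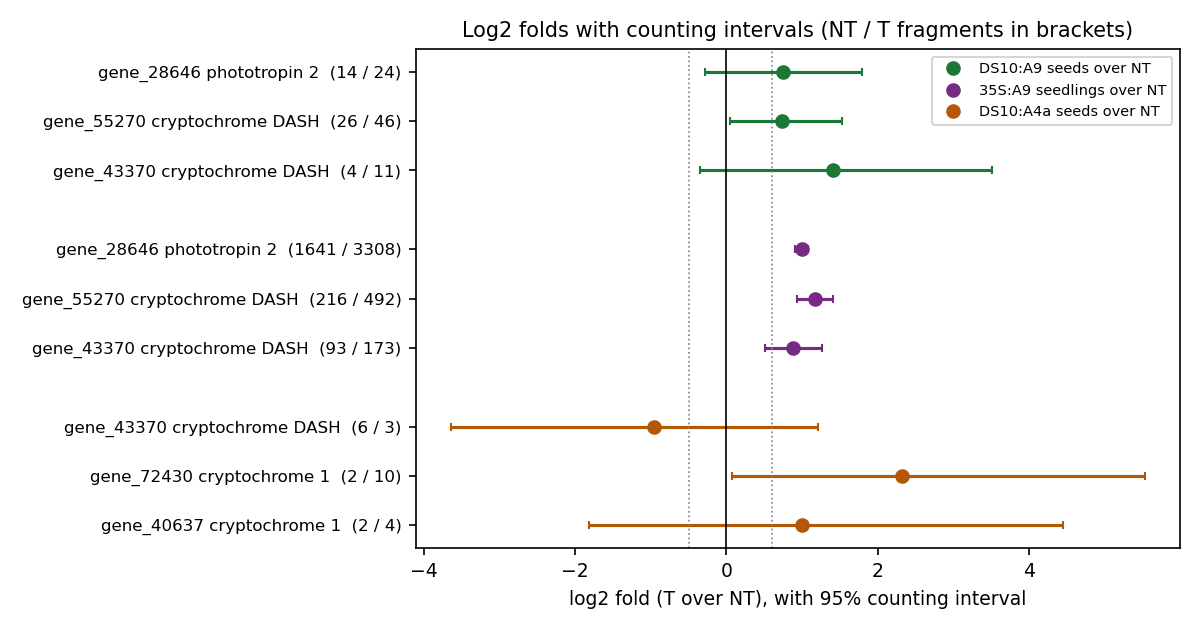
Log2 folds (T over NT) of the 5 genes in each comparison that lists them, with exact 95% counting intervals. The numbers in brackets are NT and T fragments, and dotted lines mark the listing thresholds of 0.6 and -0.5. The seedling intervals, from 93 or more fragments per library, are the narrowest and exclude 0, while those of gene_40637 and gene_43370 with A4a span both sides.

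Phototropin 1, the adagio receptors and the photolyases were listed with A4a and not in the A9up table. Phototropin 1 (gene_3866), the partner of phototropin 2 that acts at lower light in Arabidopsis, had 0.14 FPKM in the NT library and 0.22 FPKM in the DS10:A4a library, a log2 fold of 0.65 with an interval of -0.69 to 2.01. The adagio proteins, LOV-domain receptors of the ZEITLUPE family that time protein degradation in the circadian clock and in flowering, were listed with 5 genes, all lower, and 4 of the intervals excluded 0. Over all genes listed as lower this share was 22.0%, and 54.1% at 1 FPKM or more, where 4 of the 5 stood. The most abundant, gene_20957 (adagio 1-like), fell from 26.99 to 16.18 FPKM, a log2 fold of -0.74 with an interval of -1.27 to -0.23. The gene gene_53145 (adagio 3) fell from 19.33 to 12.09 FPKM, a log2 fold of -0.68 with an interval of -0.98 to -0.37. Their listed transcripts, 263 and 827 bases long, are short. Several of the 5 adagio entries are described as adagio protein 3, at lengths from 503 to 3365 bases, so they need not be separate genes. Both listed (6-4) photolyases, close relatives of cryptochromes that repair ultraviolet photoproducts, were lower as well. The gene gene_24673 fell from 20.83 to 13.64 FPKM, a log2 fold of -0.61 (-0.78 to -0.45), and gene_79129 from 2.76 to 1.66 FPKM, a log2 fold of -0.73 (-1.27 to -0.22). All 4 of these genes stood above 1 FPKM in both libraries, while the cryptochrome 1 genes did not reach 0.20 FPKM in NT seeds.

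**Figure D4:**
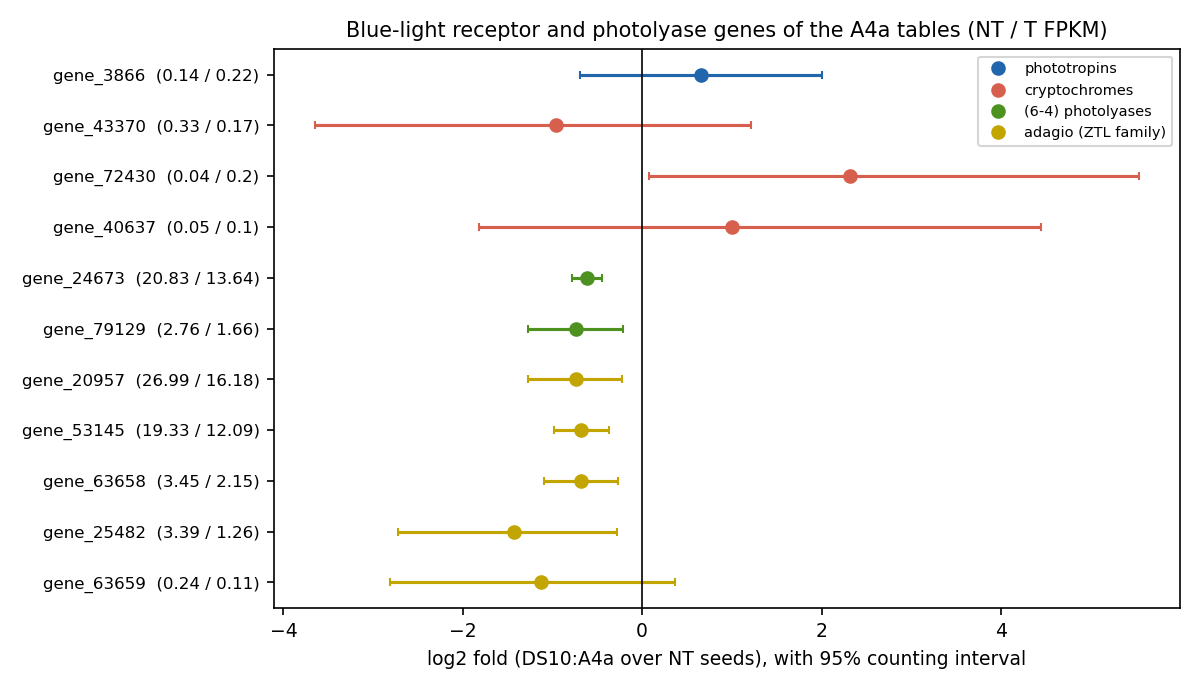
Log2 folds (DS10:A4a over NT seeds) of the listed phototropin, cryptochrome, (6-4) photolyase and adagio genes, with exact 95% counting intervals and NT and T FPKM in brackets. The gene gene_2915, listed at 0 in the NT library, has no fold and is not drawn. Both photolyases and 4 of the 5 adagio genes lie below 0 with their intervals, while the phototropin and cryptochrome intervals are wide.

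Genes whose descriptions hold names linked to phototropin signalling, many of them WEB family genes that need not act in it, were listed with A4a and not in the A9up table. Of 12 listed as higher 1 was called, where 19.4% of all such genes were, and of 13 listed as lower 4 were, where 22.0% were. Root phototropism protein 2 (gene_76419), which binds phototropin 1 in Arabidopsis phototropism, fell from 2.62 to 1.00 FPKM with A4a, a log2 fold of -1.39 with an interval of -2.03 to -0.81. A WEB family gene (gene_3191), from a family with members that affect chloroplast movement, went from 1.32 to 2.27 FPKM, a log2 fold of 0.78 with an interval of 0.27 to 1.30. The median log2 folds, 1.00 over the higher and -0.81 over the lower genes of this group, were near those of the tables as a whole.

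Genes whose descriptions hold names linked to cryptochrome signalling, many of them CONSTANS-LIKE genes that need not act in it, were listed with both factors. Some carry another description in the seedling values, such as SAGA-associated factor 73-like. In the A9up table there were 8, of which 4 were called in seeds, against 20.7% of the table, and 6 in seedlings, against 42.8%. With A4a, 6 were listed as higher, 3 of them called, and 19 as lower, 9 of them called, against 19.4% and 22.0% of all genes listed so. These shares rise with level, to 57.4% and 54.1% at 1 FPKM or more, where 3 of 5 and 7 of 10 were called. With A9 at that level, 4 of 5 were called in seeds and 6 of 8 in seedlings, against 52.0% and 73.0% of A9up genes. HY5 (gene_78854), the transcription factor that promotes light-dependent development, had 5.80 FPKM in the NT library and 9.29 FPKM in the DS10:A9 library, a log2 fold of 0.68 with an interval of 0.20 to 1.16. In 35S:A9 seedlings its log2 fold was 0.71 with an interval of -0.33 to 1.70, which includes 0. In the A4a comparison the same gene had 5.55 FPKM in the NT library and 2.76 FPKM in the T library, a log2 fold of -1.01 with an interval of -1.55 to -0.48. A COP1-like gene (gene_80985) had 2.2 FPKM in NT seeds and 3.34 FPKM with DS10:A9, a log2 fold of 0.60 with an interval of 0.23 to 1.00. Another COP1-like gene, gene_15927, fell with A4a from 39.29 to 25.5 FPKM, a log2 fold of -0.62 (-0.75 to -0.50). The COP1 partner SPA1-related 4 (gene_50661) fell from 9.62 to 6 FPKM, a log2 fold of -0.68 (-0.89 to -0.48). In 35S:A9 seedlings gene_1655, described there as constans and in seeds as CONSTANS-LIKE 2, was higher at 27.4 against 16.33 FPKM. It need not be CONSTANS itself, whose Arabidopsis protein is degraded through COP1. The gene gene_79713, CONSTANS-LIKE 16-like there and CONSTANS-LIKE 6-like in seeds, was higher at 12.59 against 4.04 FPKM. The seedling log2 folds of these genes were 0.75 (0.57 to 0.92) and 1.64 (1.31 to 1.98). With DS10:A9 they were 0.74 (-0.60 to 2.22) and 0.85 (-3.31 to 6.83), and both intervals include 0.

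Receptors for other wavelengths were listed as well. Phytochromes, the red and far-red receptors, were listed with 9 genes in the A9up table. Of these 7 were called in seeds and 9 in seedlings, where 20.7% and 42.8% of the table were. At 1 FPKM or more, 6 of 6 were called in seeds and 9 of 9 in seedlings, against 52.0% and 73.0% of A9up genes. Several are described as phytochrome A1 at unlike lengths, such as 1531 bases for gene_22791 and 3524 for gene_2752, so the 9 need not be separate genes. Phytochrome A1 (gene_22791) had 6.31 FPKM in NT seeds and 12.03 FPKM with DS10:A9, a log2 fold of 0.93 (0.59 to 1.29), and 12.09 and 25.51 FPKM in NT and 35S:A9 seedlings, a log2 fold of 1.08 (0.85 to 1.30). The gene gene_2752, also phytochrome A1, had a seed log2 fold of 0.92 (0.68 to 1.15), and gene_22797 a seedling log2 fold of 0.99 (0.77 to 1.2). With A4a, 3 phytochrome genes were listed as higher, 1 of them called, and 3 as lower, 2 of them called. Over all genes listed so, the shares were 19.4% and 22.0%. The gene called higher was phytochrome C (gene_8186), at a log2 fold of 1.30 (0.26 to 2.58), from 10 and 26 fragments. Those called lower were phytochrome B (gene_78589) at -1.04 (-1.86 to -0.28) and phytochrome E (gene_25647) at -0.80 (-1.27 to -0.34) on the log2 scale. The UV-B receptor UVR8 senses ultraviolet through its own tryptophans. Of the genes with UVR8 in a description, 1 (gene_32674) was in the A9up table, with 7 fragments or fewer per library, and neither interval excluded 0. Its seed description is UVR8-like and its seedling description regulator of chromosome condensation-like, so it need not be a UV-B receptor. With A4a 6 UVR8-type genes were listed as higher, 3 of them called, and 4 as lower, 1 of them called, against the same shares. Among them gene_64458 went from 2.2 to 8.41 FPKM, a log2 fold of 1.93 (1.56 to 2.30), and gene_24210 from 32.24 to 20.57 FPKM, a log2 fold of -0.65 (-0.79 to -0.50).

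For each of the 5 genes the described genes nearest in log2 fold, with at least 1 FPKM, were looked up by Euclidean distance. Over the seed and seedling folds with A9, the genes nearest to phototropin 2 were gene_29880 (protease Do-like 9), gene_56878 (an acyl-activating enzyme) and gene_11120 (a late blight resistance homologue), at 0.02 log2 units each, and 16 of 514 candidates lay within 0.1. The nearest to gene_55270 were gene_59863 (an ocs element-binding factor), gene_68977 (PASTICCINO 2A-like) and gene_33358 (a protein kinase), at 0.03 to 0.04, with 13 of 513 within 0.1. For gene_43370, over 3 comparisons and 161 candidates, none lay within 0.1, and gene_6572 (a glycine-rich RNA-binding protein) was nearest at 0.24, followed by gene_21415 (a tRNA dimethyltransferase) at 0.27 and gene_65555 (PGSIP6) at 0.30. The cryptochrome 1 genes have 1 comparison each, where 18 and 304 of 4213 candidates lay within 0.1. For phototropin 2 and the DASH copies the counting intervals of the seed folds are far wider than the distances given. Nearness therefore names no particular gene for any of the 5.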

How the data were processed

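RNA was sequenced by the study as 100-base paired reads. The authors mapped reads and estimated expression with HISAT (0.1.6), StringTie (1.04), Bowtie2 (2.2.5) and RSEM (1.2.12), as the submitters' processing notes list them, and deposited FPKM with 0 written as 0.01, beside transcript lengths in bases. The study's methods name the Ntab-BX assembly of tobacco as the genome and a tobacco transcriptome merged with assembled transcripts as the reference for FPKM. No coordinates were used here. The deposited log2 values and p-values are the authors' own comparisons of 1 library with another and were not used. Tables hold only genes past log2 thresholds of 0.6 or -0.5. Each NT column was used with the T column of its own table, and which NT seed sample it holds could not be told from the labels.

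Folds were recomputed from FPKM with Python 3.11.15, NumPy 2.4.6, SciPy 1.17.1 and pandas 2.3.3. Fragments were recovered from FPKM and length (less 45 bases for seedlings and 65 for seeds), at the depth where low values came closest to whole numbers: 86.1 to 93.2% of low values were whole within 0.1. The steps were tested on simulated data. Intervals are exact Clopper-Pearson for folds and shares and exact Poisson for levels, at 95%. With 1 library per condition no p-value is given. No expression column of another series was present. Genes were grouped in 8 lists by words in their descriptions, and 6 acid phosphatases that a pattern had caught were left out of cryptochrome signalling after their descriptions were seen. The genes and lists were chosen with earlier results of these data known. Named genes were the 5 genes, every other phototropin or cryptochrome, the 2 most abundant of each other list per comparison and the 3 nearest in fold. Further HY5 genes and a phytochrome C gene were named beside these. Alternatives were pseudocounts of 0.1 and 1, the full length or 2 times lower depth behind the interval, an FPKM minimum of 1, a fold minimum, the other NT seed library and summed copies.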

Additional observations from a re-analysis of the deposited data

Results flagged for a closer look

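The DASH gene gene_43370 lay on opposite sides of 0 with the seed constructs, at a log2 fold of 1.41 with DS10:A9 and -0.96 with DS10:A4a. It rests on 3 to 11 fragments per library, both intervals include 0 and overlap, and the difference between the constructs was not tested. HY5 (gene_78854) also had opposite signs, at 0.68 with DS10:A9 and -1.01 with DS10:A4a, and there the counting intervals do not overlap. With 1 library on each side that difference was not tested over plants or lines either. Another gene described as HY5, gene_57696, had log2 folds of 1.55 (0.25 to 3.01) with DS10:A9 and -0.94 (-2.21 to 0.23) with DS10:A4a. The A4a interval includes 0. In 35S:A9 seedlings its log2 fold was 2.58 (0.40 to 5.77), from 2 and 12 fragments. A further gene with the same seed description, gene_57694, fell with A4a from 6.49 to 2.60 FPKM, from 96 and 39 fragments. Its log2 fold was -1.32 (-1.89 to -0.77). These entries need not be separate genes.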

How the results depend on the processing

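No paired analysis was possible because each condition has 1 library per comparison. The 3 seedling calls held with the full length and with a depth 2 times lower. Pseudocounts were tried on the fold alone, with no interval. Pseudocounts of 0.1 and 1 lowered the seed log2 folds with DS10:A9 to 0.61 and 0.23 for phototropin 2, 0.70 and 0.47 for gene_55270, and 1.18 and 0.49 for gene_43370. With DS10:A4a they gave 1.10 and 0.21 for gene_72430, 0.42 and 0.07 for gene_40637, and -0.67 and -0.18 for gene_43370. Seedling folds stayed between 0.79 and 1.16. Under that lower depth the interval of gene_55270 with DS10:A9 (log2 fold 0.74) became -0.27 to 1.88, and that of gene_72430 with DS10:A4a (2.32) became -0.86 to 7.87. Moving 1 fragment against the difference, an alternative chosen after seeing the data, gave log2 folds of 0.69 and 1.57 for these genes, with intervals that include 0, and left 0 called genes with DS10:A9 and 0 with DS10:A4a. It kept the direction in 8 of 9 folds, the exception being gene_40637. Asking for a log2 fold of 1 or more left 0 of 1 called genes in DS10:A9 seeds and 1 of 3 in seedlings, where phototropin 2 lay just under 1. Asking for 1 FPKM left 0 of 1 with DS10:A4a. Of 59 alternatives for the folds and counts, 9 changed a call or a count by more than 1.5 times. The 18 with a pseudocount carry no call of their own. For the gene groups, the 1 FPKM minimum lowered 3 of 23 counts by more than 1.5 times. Depth limits what can be said of seeds: 3 fragments correspond to 0.183 to 0.266 FPKM for a transcript of 1 kb. The cryptochrome 1 transcripts are longer, at 3152 and 2562 bases, so this range does not apply to them. Each had 2 fragments in the NT library.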
